A study of Mus musculus with 48 samples.

Results

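Transporters that load glutamate and GABA into synaptic vesicles or clear them from the extracellular space were followed through adult mouse hippocampus with and without a conditional deletion of Setd1b, an enzyme that methylates lysine 4 of histone H3. The 8 genes were taken by symbol from the Ensembl identifiers of the RNA count files, out of 47569 identifiers shared by all of those files. They were the vesicular glutamate transporters Slc17a6 (ENSMUSG00000030500), Slc17a7 and Slc17a8, the vesicular GABA transporter Slc32a1, the plasma membrane GABA transporter Slc6a11, and the plasma membrane glutamate transporters Slc1a1, Slc1a2 and Slc1a3. The mice were of strain C57BL/6J, aged 4 to 6 months, labelled either Setd1b cKO or Control. RNA had been sequenced from hippocampal CA neurons (3 libraries of each genotype) and from whole CA tissue (6 of each). Peak lists came from chromatin of sorted neuronal nuclei, with 4 libraries of each genotype for H3K4me3 and for H3K4me1, 4 labelled cKO and 3 control for H3K27ac, and 3 labelled cKO and 4 control for H3K9ac. The promoter that drives the deletion, the alleles that the controls carry and the isolation of the neuron RNA are not given in the sources used here, and no label says whether libraries came from separate animals. P-values therefore measure only the spread between libraries, which may be technical.

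Glutamate is the main excitatory transmitter of the hippocampus and GABA the main inhibitory one. Vesicular transporters fill synaptic vesicles with one or the other and so mark the transmitter a neuron releases, whereas the plasma membrane carriers, mostly on astrocytes, end the signal by taking the transmitter up. Astrocytes turn glutamate into glutamine, which neurons take back and convert again. H3K4me3 marks active start sites, H3K4me1 enhancers and the flanks of start sites, and H3K27ac and H3K9ac active regulatory regions.

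Gene counts summed to between 55735204 and 69071100 per neuron library and between 14878128 and 20100286 per whole CA library, and 0.0081% to 0.014% of them in the neuron libraries were mitochondrial, against 3.41% to 7.05% in whole CA. Setd1b itself did not fall with the cKO label. In edgeR's quasi-likelihood test, neuron RNA gave a log2 fold change of 0.25 (SE 0.13, adjusted p = 0.361) and whole CA RNA one of 0.59 (SE 0.11, adjusted p = 0.00415, higher). Within sequencing lanes (replicates 1 to 3, then 4 to 6) the whole CA value was 0.49 in the first, where it did not pass (adjusted p = 0.0994), and 0.69 in the second (adjusted p = 0.0162). Counts per gene cannot show the loss of an exon, so the groups are named here by their labels. Astrocyte, oligodendrocyte and microglial markers were lower in neuron RNA than in whole CA RNA (9 of 9, 7 of 7 and 7 of 7 genes in the control libraries), and so were 4 of 6 pyramidal neuron markers. All 4 dentate granule cell markers were higher in neuron RNA.

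Start sites were taken from RefSeq tables of GRCm38.p6, the build of the peak lists, which held 10 promoters of the 8 genes among 32851 in all. Slc17a6 lies on chromosome 7 at 51621830 to 51671126 and has 2 listed start sites, at 51621830 and 51624637. Slc17a7 lies on the same chromosome at 45163921 to 45176139, and Slc1a1 on chromosome 19 at 28835135 to 28913960. Slc1a2 (102658239 to 102790784) and Slc32a1 (158607260 to 158615747) lie on chromosome 2, Slc6a11 on chromosome 6 at 114131241 to 114249886, Slc17a8 on chromosome 10 at 89574020 to 89621249, and Slc1a3 on chromosome 15 at 8634124 to 8710807. The 250 bases upstream of the 4 start sites on which the H3K4me3 results turn are shown 5′ to 3′ on the plus strand, which is also the strand of the genes. Capitals mark each CG, the dinucleotide that is methylated in mammalian DNA and that clusters in CpG islands.

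Slc17a6 start site 1, chr7:51621580-51621829: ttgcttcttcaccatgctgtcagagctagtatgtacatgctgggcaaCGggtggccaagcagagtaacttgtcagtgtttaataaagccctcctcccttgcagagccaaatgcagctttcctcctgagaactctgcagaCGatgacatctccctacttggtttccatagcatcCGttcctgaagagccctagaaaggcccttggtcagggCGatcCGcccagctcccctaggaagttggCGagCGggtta
Slc17a6 start site 2, chr7:51624387-51624636: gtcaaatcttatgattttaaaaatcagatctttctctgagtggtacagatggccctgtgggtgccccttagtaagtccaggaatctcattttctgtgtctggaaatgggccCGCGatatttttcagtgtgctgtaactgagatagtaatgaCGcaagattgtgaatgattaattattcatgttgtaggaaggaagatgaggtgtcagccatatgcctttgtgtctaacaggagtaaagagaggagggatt
Slc17a7, chr7:45163671-45163920: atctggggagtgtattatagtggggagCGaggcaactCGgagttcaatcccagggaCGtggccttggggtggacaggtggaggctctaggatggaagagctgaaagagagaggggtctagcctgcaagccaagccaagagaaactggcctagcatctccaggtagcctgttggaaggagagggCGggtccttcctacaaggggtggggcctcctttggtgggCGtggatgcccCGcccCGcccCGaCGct
Slc1a1, chr19:28834885-28835134: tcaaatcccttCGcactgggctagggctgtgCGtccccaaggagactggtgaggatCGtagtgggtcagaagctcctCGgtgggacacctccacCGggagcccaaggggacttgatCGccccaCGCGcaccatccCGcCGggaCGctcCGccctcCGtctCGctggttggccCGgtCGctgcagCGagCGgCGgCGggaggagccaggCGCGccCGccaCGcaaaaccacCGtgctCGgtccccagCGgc

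The sequences differ in CG content. Slc1a1 had 27 CG in these 250 bases, a number reached by 8.6% of all listed promoters, and Slc17a7 had 9, reached by 40.3%. The first start site of Slc17a6 had 7 (46.3% of promoters reached it) and its second start site 3 (71.0%), against a median of 6 over all promoters. CG was searched as these 2 letters, which read the same on both strands, and 92.1% of promoters held at least 1. Among the other members Slc6a11 had 25, Slc32a1 12 at its second start site, Slc17a8 5 and 3, Slc1a3 2, and Slc1a2 1 at its second start site.

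No transporter passed the adjusted threshold of 0.05 between the genotypes in either material. In neuron RNA 0 of 8 members passed with edgeR and 0 with DESeq2, where edgeR called 2.75% of all 19622 genes tested. At an unadjusted p under 0.05 it was 2 members, Slc6a11 and Slc1a2, and 17.2% of all genes. In whole CA RNA it was also 0 of 8 with either tool, where edgeR called 4.17% of 15362 genes. At an unadjusted p under 0.05 it was 2 members, Slc17a7 and Slc1a1, and 15.7% of all genes. The members' median log2 fold change was 0.05 for neuron RNA, beside 0.02 over all genes tested, and -0.06 for whole CA RNA, beside -0.003. Levels are given in CPM, a gene's counts after each library is scaled to 1000000 gene counts in all. They are compared within a gene only, because no exon lengths were used.

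**Figure D1:**
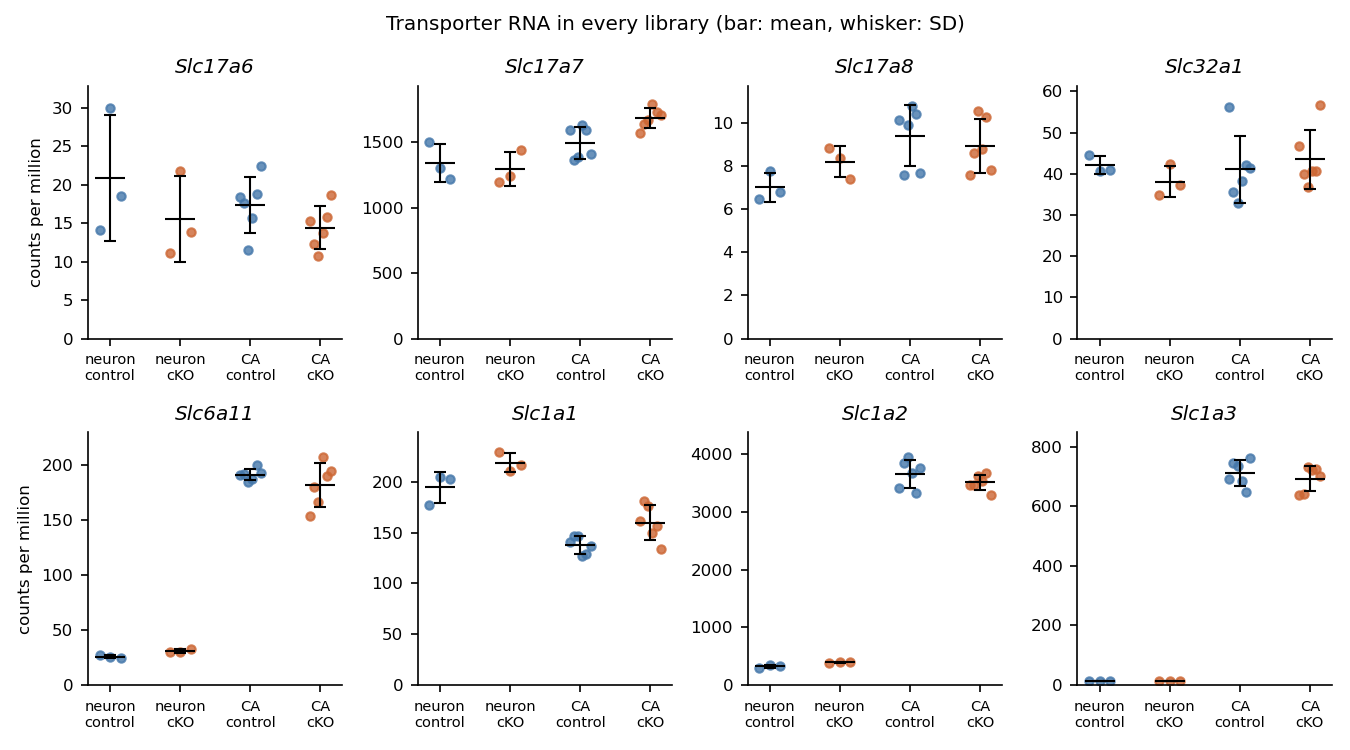
CPM (vertical axis, linear, from 0) of each transporter in every RNA library, with neuron RNA on the left and whole CA RNA on the right of each panel; blue points are control libraries, orange points libraries labelled cKO, bars means and whiskers SD. Slc6a11, Slc1a2 and Slc1a3 sit far lower in neuron RNA than in whole CA RNA, while in whole CA RNA the ranges of both genotypes overlap in every panel.

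Slc17a7 encodes VGLUT1, the vesicular glutamate transporter of hippocampal pyramidal cells and granule cells. In neuron RNA it stood at 1504, 1303 and 1216 CPM in the 3 control libraries and at 1196, 1242 and 1441 CPM in those labelled cKO. The groups overlapped, and the log2 fold change was -0.07 with an interval of 2 SE from -0.31 to 0.18. In whole CA RNA the control libraries ran from 1365 CPM (median 1501) to 1633 CPM and those labelled cKO from 1568 CPM (median 1690) to 1788 CPM. The upper whole CA control libraries reached into the upper group's range. There the log2 fold change was 0.16 (SE 0.05), which did not pass (adjusted p = 0.120). The value was 0.19 within the first sequencing lane (replicates 1 to 3) and 0.13 within the second (replicates 4 to 6).

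Some markers of pyramidal and granule cells were lower in the libraries labelled cKO. Of 6 pyramidal neuron markers, Neurod6 (log2 fold change -2.25) and Nrgn (-0.43) were lower in neuron RNA, where 2.75% of all genes passed. The other 4 did not pass, and 1 of the 6 was positive (0.13), with a median of -0.27. For whole CA RNA, where 4.17% of all genes passed, Neurod6 was lower (-1.78) and 5 did not pass. There 2 of the 6 were positive (up to 0.13), with a median of -0.08. Markers called higher numbered 0 in each material. Of 4 dentate granule cell markers, C1ql2, Dsp and Tdo2 were lower in neuron RNA (-0.78 to -0.70), and Prox1 did not pass (-0.02). In whole CA RNA Dsp was lower (-0.96), and the other 3 did not pass (up to -0.345). Summed pyramidal marker levels were 1399 to 1554 CPM in the neuron libraries labelled cKO against 1740 to 2031 CPM in the controls, and 4780 to 5446 CPM against 5430 to 6345 CPM in whole CA. Summed granule cell marker levels were 115.3 to 150.5 CPM against 153.0 to 178.9 CPM in neuron RNA and 29.97 to 73.6 CPM against 54.5 to 83.1 CPM in whole CA. Their part in the Slc17a7 values was not tested.

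Slc17a6 encodes VGLUT2, which in the forebrain is best known from thalamic neurons. It was the member with the widest spread between libraries. Neuron RNA held 14.2, 29.99 and 18.6 CPM in the control libraries and 11.1, 21.8 and 13.8 CPM in those labelled cKO, and the library numbered 2 was the highest of each genotype. The log2 fold change of -0.44 had an SE of 0.29 (adjusted p = 0.474). Whole CA control libraries lay between 11.5 CPM and 22.4 CPM with a median of 17.96 CPM, and those labelled cKO between 10.7 CPM and 18.7 CPM with a median of 14.5 CPM. These ranges overlapped, and the log2 fold change was -0.29 (SE 0.14, adjusted p = 0.337), with -0.29 in the first lane and -0.28 in the second.

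Of 5 thalamus markers tested in whole CA RNA, where 4.17% of all genes passed, Prkcd (log2 fold change -0.75) and Lhx9 (-0.51) were lower in the libraries labelled cKO, and Tcf7l2 (-0.34), Lef1 (-0.26) and Rgs16 (0.17) did not pass. The summed level of the 6 listed markers was 43.5 to 54.3 CPM in the libraries labelled cKO and 60.7 to 75.2 CPM in the controls, so the groups did not overlap. In neuron RNA, where 2.75% of all genes passed, Prkcd was lower (-0.70, adjusted p = 0.0406) among 4 tested. The other 3 did not pass, and 2 of the 4 were positive (up to 0.32), with a median of 0.06 over the 4. The summed levels of the listed markers were 37.0 to 40.2 CPM in the libraries labelled cKO and 43.9 to 46.7 CPM in the controls. The part of these markers in the Slc17a6 value was not tested. In bulk RNA, fewer cells of a type and less RNA per cell cannot be told apart.

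Slc17a8 encodes VGLUT3, which is found in small sets of neurons that often release another transmitter as well. Its neuron RNA levels were 6.49, 7.79 and 6.82 CPM in the control libraries and 8.85, 8.40 and 7.43 CPM in those labelled cKO. One control library lay inside the range of the other genotype, and the log2 fold change was 0.21 (SE 0.12, adjusted p = 0.384). Whole CA libraries of both genotypes ran from 7.59 CPM, up to 10.8 CPM in the controls (median 10.03 CPM) and 10.6 CPM in the libraries labelled cKO (median 8.71 CPM). The log2 fold change was -0.09 (SE 0.12) there.

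Slc32a1 encodes VGAT, which loads GABA into the vesicles of inhibitory neurons. The control neuron libraries held 44.6, 40.7 and 41.0 CPM and those labelled cKO 34.8, 42.3 and 37.3 CPM. The genotypes overlapped, with a log2 fold change of -0.16 (SE 0.09, adjusted p = 0.427). Whole CA libraries spanned 32.8 to 56.1 CPM in the controls (median 39.9 CPM) and 36.7 to 56.7 CPM in those labelled cKO (median 40.7 CPM), and 1 library of each genotype stood above 50 CPM. The log2 fold change of 0.07 had an interval from -0.16 to 0.30. Of 10 interneuron markers, 0 passed in either material by the same edgeR test, with 0 at an unadjusted p under 0.05 in neuron RNA and 1 in the tissue RNA. Gad1 and Gad2, the enzymes that make GABA, had log2 fold changes of 0.07 (SE 0.13) and 0.14 (SE 0.14) in neuron RNA, and 0.05 (SE 0.07) and -0.03 (SE 0.07) in the whole CA libraries.

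Slc6a11 encodes GAT-3, a GABA carrier of astrocytes. Neuron RNA held little of it, with 27.1, 25.3 and 24.95 CPM in the control libraries and 29.7, 30.1 and 32.8 CPM in those labelled cKO. Every library labelled cKO was above every control, an order found toward higher values in 12.5% of all genes tested. The log2 fold change was 0.25 (SE 0.09), which did not pass (adjusted p = 0.185). In whole CA RNA the controls were tight, from 184.6 CPM (median 191.5) to 200.4 CPM, and the libraries labelled cKO spread around them from 153.5 CPM (median 185) to 207.5 CPM. The log2 fold change was -0.09 (SE 0.06), with -0.17 in the first lane and -0.02 in the second.

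Slc1a2 encodes GLT-1, the astrocyte carrier that takes up most of the glutamate in the hippocampus and is also present in some axon terminals. Its neuron RNA levels were 298.1, 352.1 and 333.6 CPM in the control libraries and 388.7, 403.9 and 396.9 CPM in those labelled cKO, again without overlap. The log2 fold change of 0.26 (SE 0.09) did not pass (adjusted p = 0.205). Whole CA controls lay between 3331 and 3951 CPM (median 3714) and the libraries labelled cKO between 3301 and 3686 CPM (median 3509). These overlapped, with a log2 fold change of -0.07 (SE 0.05).

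Slc1a3 encodes GLAST, an astrocyte glutamate carrier that is also strong in radial glia and cerebellar Bergmann glia. It was at 13.3, 14.9 and 12.9 CPM in the control neuron libraries and at 13.6, 12.4 and 13.6 CPM in those labelled cKO. Whole CA levels were 649.0 to 762.3 CPM in the controls and 637.7 to 731.0 CPM in the libraries labelled cKO. Both genotype comparisons overlapped, with log2 fold changes of -0.06 (interval -0.26 to 0.13) and -0.05 (interval -0.17 to 0.06).

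Slc1a1 encodes EAAC1, the glutamate and cysteine carrier of neurons. In neuron RNA it stood at 177.0, 204.5 and 202.4 CPM in the control libraries and at 229.4, 211.0 and 216.3 CPM in those labelled cKO. The groups did not overlap, and the log2 fold change was 0.16 (SE 0.09, adjusted p = 0.424). Whole CA controls ran from 126.6 CPM (median 138.6) to 146.8 CPM and the libraries labelled cKO from 133.8 CPM (median 158.9) to 180.9 CPM. Its log2 fold change of 0.20 (SE 0.08) did not pass (adjusted p = 0.177), with 0.27 in the first lane and 0.13 in the second. Without the library labelled cKO numbered 6, the lowest of its group, it was 0.26 and passed (adjusted p = 0.0424).

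**Figure D2:**
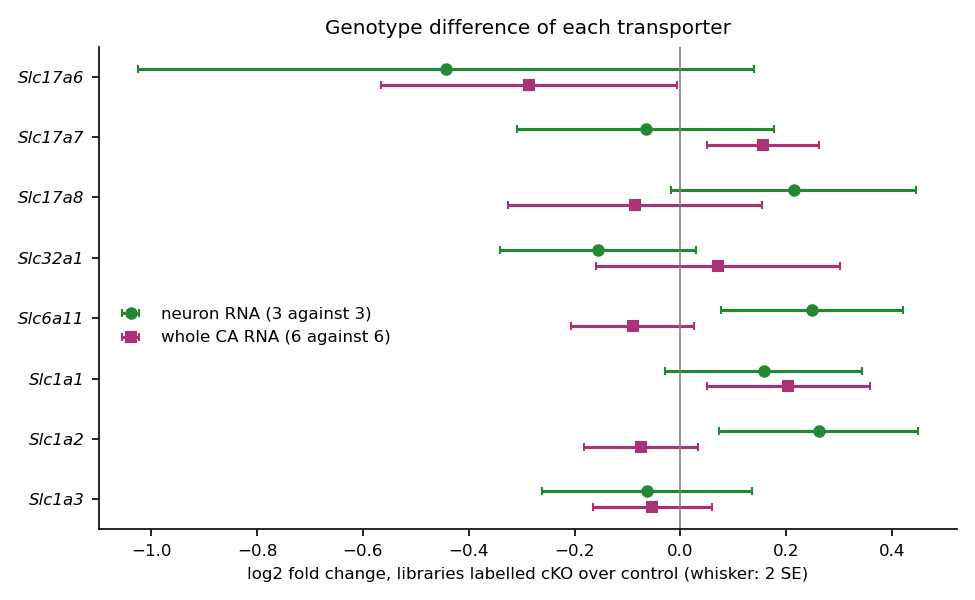
Log2 fold change of each transporter, libraries labelled cKO over control (horizontal axis), in neuron RNA (green circles, 3 against 3 libraries) and whole CA RNA (purple squares, 6 against 6); whiskers are 2 SE. No member passed the adjusted threshold in either material, and Slc17a6 has the widest interval, from -1.02 to 0.14 in neuron RNA.

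Of the 3 astrocyte carriers in neuron RNA, Slc6a11 and Slc1a2 had the higher values in the libraries labelled cKO, while the genotypes overlapped for Slc1a3. None of the 3 passed, and the difference between them was not tested. The summed level of the 9 astrocyte markers was lower in the libraries labelled cKO, at 60.3 to 72.3 CPM against 74.5 to 90.5 CPM in the controls. Of these 9 genes S100b, a calcium-binding protein, was lower (log2 fold change -0.86, adjusted p = 0.00597), 0 were higher and 8 did not pass. The list was not uniform, with 2 of the 9 positive (up to 0.40) and a median of -0.36. No marker of the list was at 0 in any neuron library. In whole CA RNA Aqp4, a water channel, was lower (-0.38, adjusted p = 0.0122) and the summed level overlapped, at 2495 to 2740 CPM and 2544 to 2956 CPM. There 3 of the 9 were positive (up to 0.08), with a median of -0.16. Whether the residual glial RNA has a part in the Slc6a11 and Slc1a2 values was not tested.

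The test of the difference between both genotype effects called 0 of 8 members (0 with DESeq2), where 0.16% of 17523 genes were called, and 2 members at an unadjusted p under 0.05, where 8.11% of all genes were. The largest differences among the members were those of Slc6a11 (0.34, SE 0.10, adjusted p = 0.374) and Slc1a2 (0.34, SE 0.10, adjusted p = 0.334), each more positive in neuron RNA. Both comparisons run between the same labels but share no library.

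The astrocyte carriers were far lower in neuron RNA than in whole CA RNA. Against control whole CA RNA, control neuron RNA held 58.2-fold less Slc1a3 (log2 fold change -5.86, SE 0.10), 12.5-fold less Slc1a2 (-3.65, SE 0.09) and 8.32-fold less Slc6a11 (-3.06, SE 0.08). The libraries labelled cKO, none of which the control comparison uses, gave 58.9-fold, 9.97-fold and 6.62-fold. All 6 values passed (adjusted p up to 5.1e-13). In the control comparison 83.6% of genes passed, 40.1% lower and 43.6% higher, and in the other 83.1%, 39.9% lower and 43.2% higher. For each of these 3 genes every whole CA library was above every neuron library of its genotype, an order found in 32.2% of genes in the controls and 31.4% in the libraries labelled cKO. Of the 8 members, 1 was higher in neuron RNA, 5 were lower and 2 did not pass in each genotype. Neuron libraries were also the deeper ones, and depth and material cannot be told apart.

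The astrocyte carriers were not depleted to the same extent as each other. Slc1a3 lay within the range of the 9 astrocyte markers, whose log2 fold changes in the control libraries ran from -6.70 to -3.54 with a median of -4.91. Slc1a2 was near the upper end of that range and Slc6a11 above it. In the libraries labelled cKO the markers ran from -6.15 to -4.16 and both Slc1a2 (-3.32) and Slc6a11 (-2.73) lay above all 9. Glul, the astrocyte enzyme that turns glutamate into glutamine, was at -4.48 (SE 0.10) in the control comparison. These positions are descriptions, since the difference between genes was not tested.

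**Figure D3:**
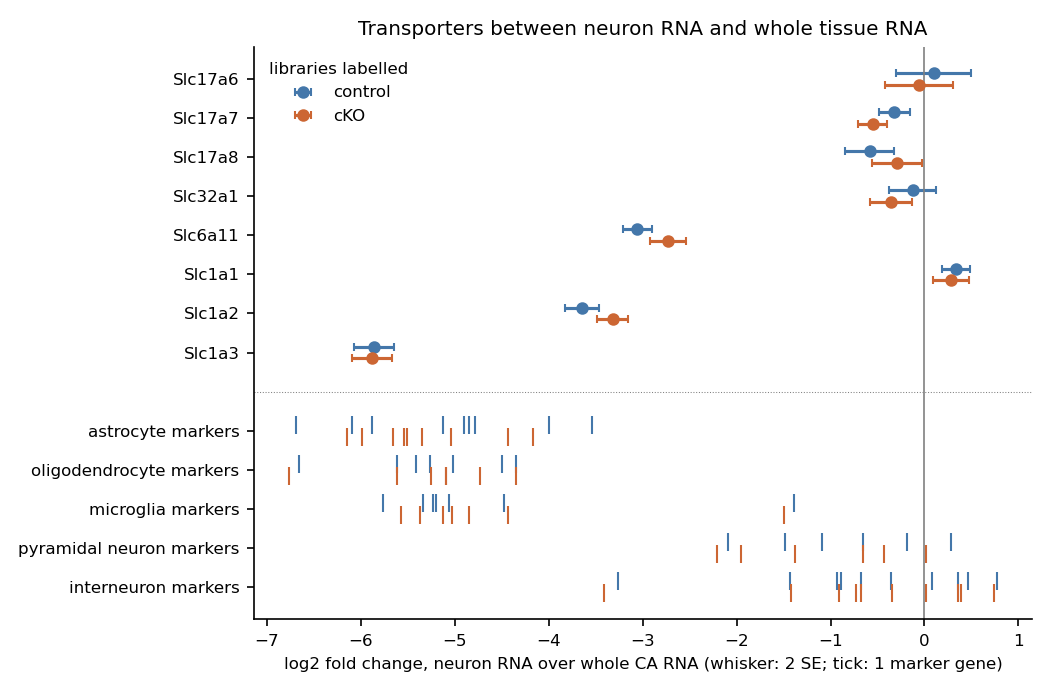
Log2 fold change of neuron RNA over whole CA RNA (horizontal axis) for each transporter (points, whiskers 2 SE) and, below the dotted line, for each marker gene (ticks), in control libraries (blue) and libraries labelled cKO (orange). Slc1a3 falls among the astrocyte markers, Slc6a11 to the right of all of them, and the vesicular transporters and Slc1a1 near 0.

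The transporters of neurons stayed near the line of equal level. Slc1a1 was the member that was higher in neuron RNA, by 0.34 (SE 0.07, adjusted p = 4.6e-04) in the control libraries and 0.28 (SE 0.10, adjusted p = 0.0129) in those labelled cKO. Slc17a7 was lower by the same test, at -0.32 (SE 0.08) and -0.55 (SE 0.08), and Slc17a8 was lower in the control libraries (-0.58, SE 0.13) but did not pass in those labelled cKO (-0.29, adjusted p = 0.0542). Slc32a1 did not pass in the controls (-0.12, SE 0.13) and was lower in the libraries labelled cKO (-0.36, SE 0.11). Slc17a6 passed in neither (0.10, SE 0.20 and -0.06, SE 0.18). In the libraries labelled cKO, Slc1a1 did not pass without the neuron library numbered 1 (0.25, adjusted p = 0.0579), while Slc17a8 passed without the whole CA library numbered 1 (-0.34) or 6 (-0.37), with DESeq2 (-0.30, adjusted p = 0.03906), with RLE factors (-0.30, adjusted p = 0.04919) and among genes with a mean count of at least 10 (-0.33, adjusted p = 0.03165).

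These small values depend on the scaling. With TMM factors the median log2 fold change of all genes was 0.07 in the control comparison, and scaling by library size alone moved it to 0.23. With that scaling Slc17a7 no longer passed in the controls (-0.16, adjusted p = 0.0990), Slc32a1 turned to 0.04 in the controls and no longer passed in the libraries labelled cKO (-0.19, adjusted p = 0.146), and Slc17a6 turned to 0.11 in those. Gad1 (-0.68, SE 0.10) and Gad2 (-0.89, SE 0.09) were lower in control neuron RNA.

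In plain CPM the mean levels of Slc17a7 were ordered whole CA labelled cKO (1684 ± 75.8 CPM, SD, n = 6), whole CA control (1496 ± 121), neuron control (1341 ± 148, n = 3) and neuron labelled cKO (1293 ± 130), and each neighbouring pair overlapped. Neighbours in the corresponding orders of Slc17a6, Slc17a8 and Slc32a1 overlapped as well. Slc1a2 and Slc6a11 had the same order as each other, with whole CA control first, then whole CA labelled cKO, neuron labelled cKO and neuron control, and only the whole CA pair overlapped. The order of Slc1a3 had its gap between both whole CA groups and both neuron groups. Slc1a1 was ordered neuron labelled cKO (219 ± 9.47 CPM), neuron control (195 ± 15.3), whole CA labelled cKO (160 ± 17.3) and whole CA control (138 ± 8.68), with a gap only between the neuron groups.

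Among other genes of the glutamate, GABA and glutamine cycle, 1 of 29 tested fell and 0 rose between the genotypes in neuron RNA, where 2.75% of all genes were called. In the tissue libraries 1 of 28 fell and 0 rose, where 4.17% were called, so both shares are near the background. The median log2 fold change was -0.04 in each. The 1 in neuron RNA was Slc38a5, a glutamine transporter, with 0.927 to 1.51 CPM in the controls and 0.063 to 0.251 CPM in those labelled cKO. Its value of -2.995 (log2 fold change, SE 0.40, adjusted p = 0.00389) rests on 4 to 94 counts per library. Whole CA RNA gave -0.56 (SE 0.18) for Slc38a5, which did not pass with edgeR (adjusted p = 0.0963) but did with DESeq2 (adjusted p = 0.0493) and without the library labelled cKO numbered 2 (-0.67, adjusted p = 0.0450). The 1 in whole CA RNA was Slc7a11, the cystine and glutamate exchanger, with 35.4 to 48.1 CPM in the controls and 26.6 to 36.5 CPM in the libraries labelled cKO (-0.37, SE 0.09, adjusted p = 0.0276). That call was lost within each lane, with fewer samples (-0.27, adjusted p = 0.300 and -0.47, adjusted p = 0.125), and in 4 of 12 fits that leave out 1 library (-0.36 to -0.31), those without the library labelled cKO numbered 4 or 5 or the control numbered 2 or 6. Glul (-0.12 and -0.07) did not pass in neuron or whole CA RNA.

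Over the 12 whole CA libraries the members did not vary as one group. Slc1a2 and Slc1a3 varied together (Pearson r = 0.75 of log2 CPM), Slc32a1 ran against Slc1a2 (r = -0.73) and Slc17a6 against Slc1a1 (r = -0.64). Lane numbers are known only from the deposited names, all 12 libraries have a like depth, and the values are descriptions. Among 13161 genes, the patterns most like each member were those of Cplx3 (r = 0.94), Mfsd5 and Epb41 for Slc17a6, and of Tmem175 (r = 0.93), Chchd5 and Nagk for Slc17a7. They were Hsbp1 (r = 0.86), Kif11 and Bex3 for Slc17a8, Ppp1r16a (r = 0.98), Dvl1 and Nyap1 for Slc32a1, and Fkbp9 (r = 0.86), Cdh20 and Fads3 for Slc6a11. For the glutamate carriers they were Slk (r = 0.93), Fnbp1l and Adam9 for Slc1a1, Klhl4 (r = 0.91), Gng12 and Ddhd1 for Slc1a2, and Prkd3 (r = 0.92), Epb41l2 and Heg1 for Slc1a3.

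H3K4me3 peaks in sorted neuronal nuclei were shorter at Slc17a6 and Slc17a7 in the libraries labelled cKO. Coverage was the number of bases under a peak within 2 kb on each side of a start site, 4001 bases at most, and it measures the extent of called peaks and not their height. With the annotated 5′ ends of Slc1a2 and Slc32a1 added to the listed promoters, the members had 12 start sites, of which 9 had peaks in at least 3 H3K4me3 libraries. Of these 3 were shorter, 0 longer and 6 did not pass (limma on log2 of covered bases plus 100). Over all start sites 13.2% of 23248 were shorter and 0.486% longer, so a loss of coverage was common. The median log2 difference was -0.23 for the members' 9 and -0.06 for all.

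At the first start site of Slc17a6, whose upstream sequence is shown above, the control libraries had 2224, 2147, 2173 and 2060 bases covered and those labelled cKO 1377, 1362, 1311 and 1141 bases. The groups did not overlap, as toward shorter at 20.6% of start sites tested, and the log2 difference was -0.69 (SE 0.06, adjusted p = 7.4e-04). The loss was not at the start itself. Within 1 kb on each side the log2 difference was -0.04 (adjusted p = 0.910). Between 1 and 4 kb downstream the control libraries had 1668 to 2063 bases covered and those labelled cKO 0 to 193 bases. A separate peak more than 5 kb downstream was present in all 8 libraries. The second start site lies inside the stretch that lost coverage, with 1973, 2257, 1997 and 1862 bases against 387, 273, 297 and 98 bases (log2 difference -2.61, SE 0.26, adjusted p = 0.00122). The windows of both start sites overlap and are not independent.

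At Slc17a7 the whole window was nearly covered in the controls, with 3894, 4001, 4001 and 3930 bases, and the libraries labelled cKO had 3273, 3509, 3237 and 3439 bases. No library of one genotype reached the range of the other, and the log2 difference was -0.23 (SE 0.03, adjusted p = 0.00571). The H3K4me3 domain of this gene is broad. Its last edge downstream of the start lay at 6715 to 7205 bases in the control libraries and at 4922 to 5099 bases in those labelled cKO. That edge lies outside the 2 kb window. In every library of both genotypes peaks covered the start and the 2 kb after it, so the difference within the window lay upstream. There, peaks were broken in all 4 libraries labelled cKO and in 2 of 4 controls.

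**Figure D4:**
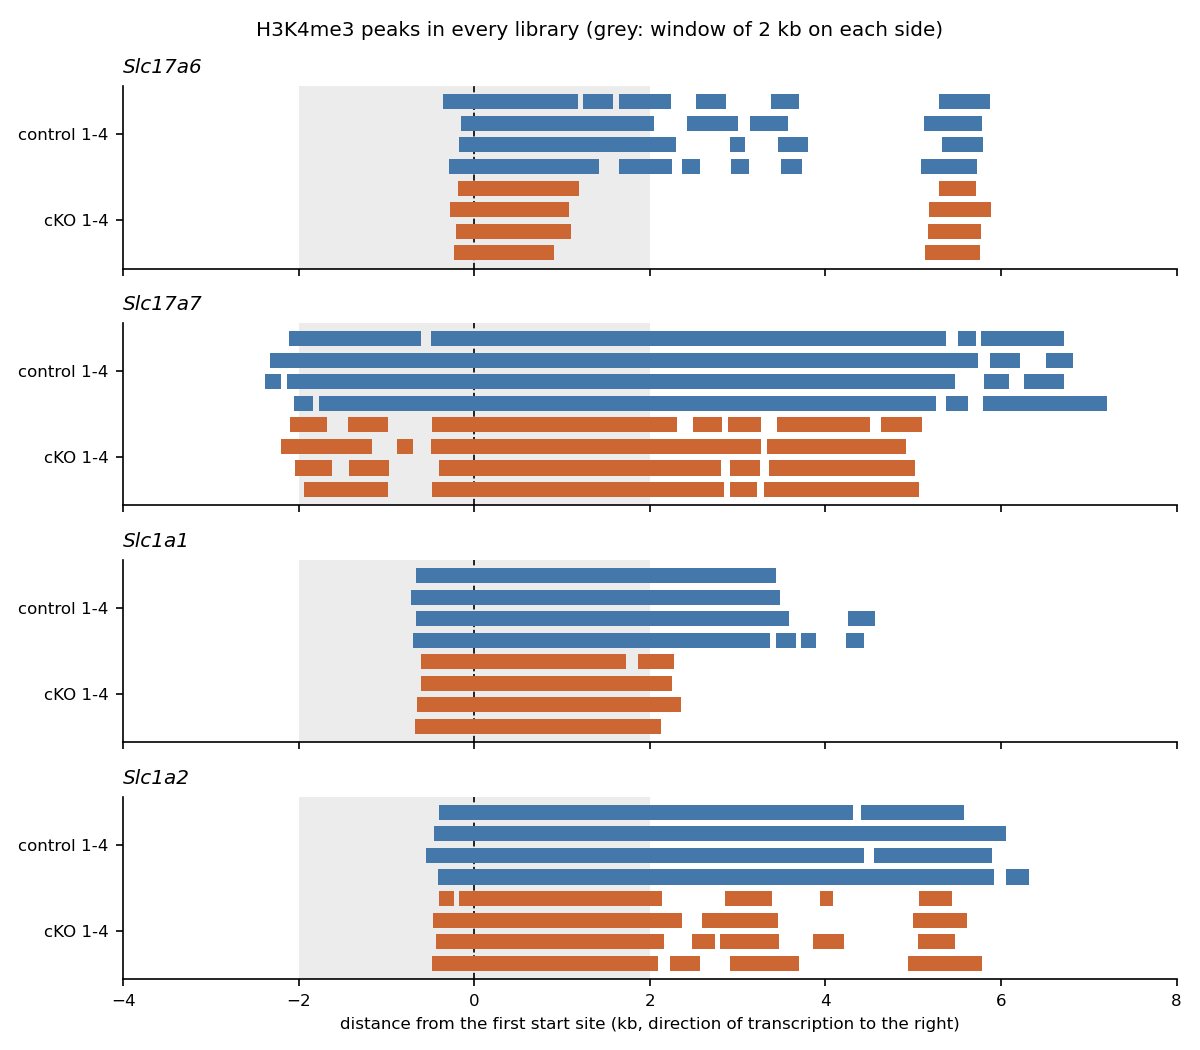
H3K4me3 peaks (bars) in each of 4 control libraries (blue) and 4 libraries labelled cKO (orange) around the first start site of Slc17a6, Slc17a7, Slc1a1 and Slc1a2, by distance from the start in kb (horizontal axis, transcription to the right); the grey band is the window of 2 kb on each side. At each gene the peak over the start remains and the downstream stretch is shorter or broken in the libraries labelled cKO. At Slc17a7 the uncovered bases within the grey band all lie upstream, in all 4 libraries labelled cKO and in 2 of 4 controls.

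A wider window, from 4 kb before to 8 kb after the start, was added after these intervals had been seen. In it 27.8% of 25954 start sites were shorter and 1.31% longer. Slc17a6, Slc17a7, Slc1a1 and Slc1a2 were shorter. Slc32a1, Slc6a11 (-0.30, adjusted p = 0.125) and Slc1a3 did not pass, and Slc17a8 was not tested. Slc17a6 had 3440 to 3874 bases covered in the controls and 1761 to 2070 in the libraries labelled cKO (log2 difference -0.92, adjusted p = 6.3e-05), and Slc17a7 8527 to 8891 against 5932 to 6564 (-0.47, adjusted p = 2.2e-04). The Slc17a7 window also takes in part of the neighbouring gene Pih1d1.

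Slc1a1, the neuronal carrier, had 2662, 2718, 2662 and 2703 bases in the 2 kb window of the controls and 2465, 2606, 2659 and 2671 bases in the libraries labelled cKO, which overlapped (log2 difference -0.05, adjusted p = 0.392). In the wider window it had 4096 to 4687 against 2734 to 3014 bases (-0.60, SE 0.06, adjusted p = 2.4e-04). Its last edge lay at 3434 to 4567 bases in the controls and at 2128 to 2355 bases in the libraries labelled cKO. The promoter shown above, rich in CG, was covered in all 8 libraries. In the same wider window H3K4me1 ran to the shorter side (-0.24, adjusted p = 0.136) and H3K9ac had 4253 to 4621 against 2619 to 3435 bases (-0.57, SE 0.11, adjusted p = 0.0599), neither of which passed.

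The first start site of Slc1a2 carried H3K4me3 in every library of neuronal nuclei, as did the start sites of the other astrocyte carriers, Slc6a11 and Slc1a3. The 2 kb window held 2400 to 2554 bases in the controls and 2356 to 2484 in the libraries labelled cKO, which overlapped (log2 difference -0.01, adjusted p = 0.861). The wider window held 5897 to 6590 against 3550 to 4548 bases (-0.59, SE 0.08, adjusted p = 0.00131). Its second start site had no H3K4me3 peak in any of the 8 libraries.

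Slc32a1, Slc6a11 and Slc1a3 did not pass in either window. Slc32a1 at its second start site had 3536 to 3736 bases in the controls and 3450 to 3938 in the libraries labelled cKO (log2 difference 0.03), and in the wider window 5229 to 6796 against 6035 to 6951 bases (0.13, SE 0.09). Its first start site had a log2 difference of -0.35 (SE 0.34) in the 2 kb window. Slc6a11 had 1914, 1939, 2042 and 1941 bases against 1390, 2045, 1733 and 1368 bases (-0.27, SE 0.12, adjusted p = 0.194). It passed when the library labelled cKO numbered 2 was left out (-0.37, adjusted p = 0.0291). Slc1a3 had 1633 to 1810 against 1571 to 1969 bases (0.02, SE 0.08). Slc17a8 had no H3K4me3 peak at either start site in any library.

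**Figure D5:**
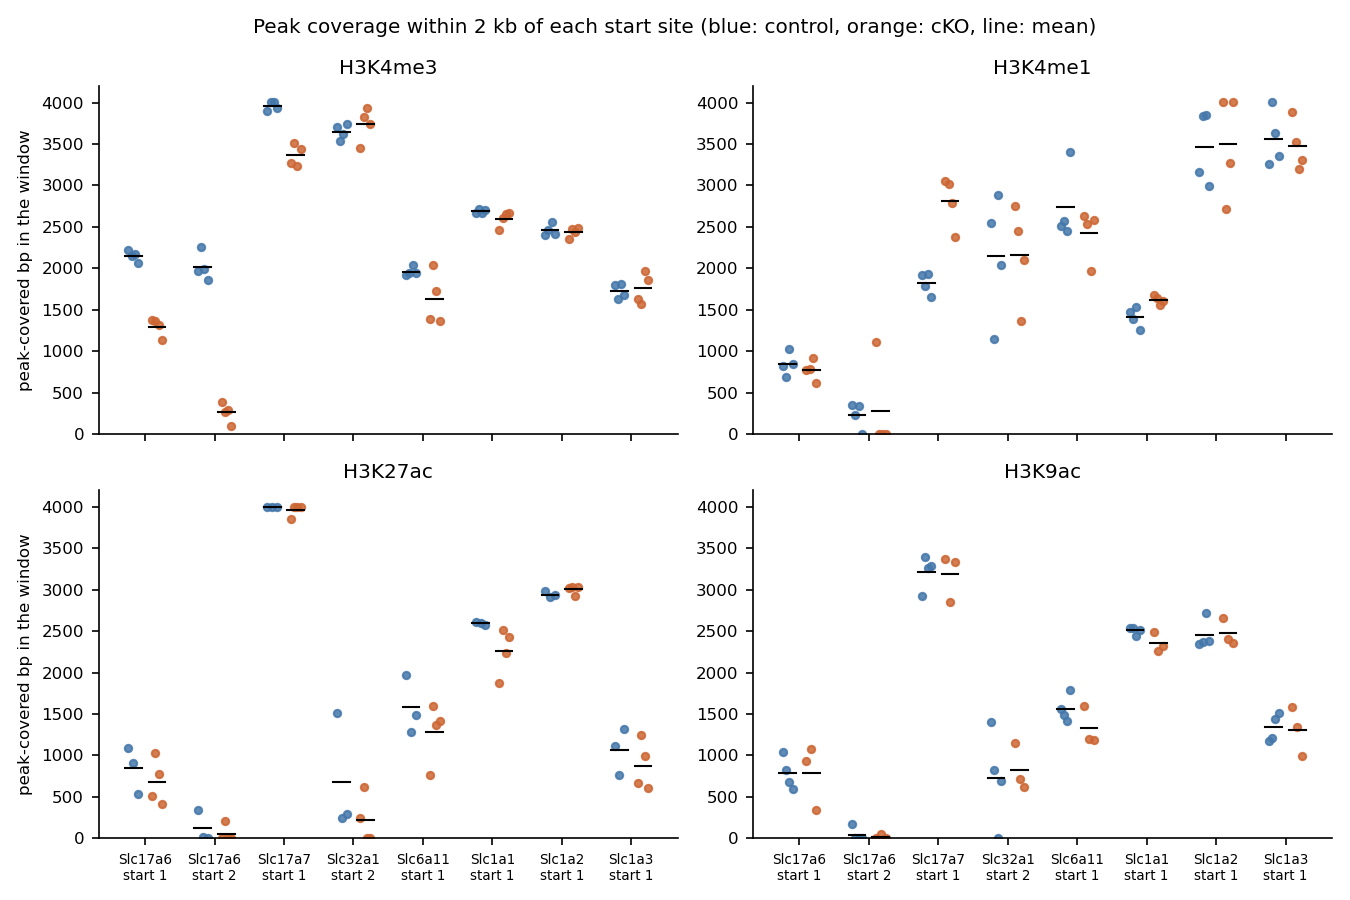
Bases covered by peaks within 2 kb of the start site (vertical axis, from 0, at most 4001) for 8 start sites of the transporters and 4 histone marks; blue points are control libraries, orange points libraries labelled cKO, lines means. H3K4me3 separates the genotypes at both Slc17a6 start sites and at Slc17a7, H3K4me1 at Slc17a7 and Slc1a1, and H3K27ac at Slc1a1.

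H3K4me1 coverage in the 2 kb window ran opposite to that of H3K4me3 at Slc17a7, but at other positions. The longer H3K4me1 coverage lay downstream, where peaks began 806 to 1433 bases after the start in the libraries labelled cKO. In the controls these peaks began at 2164 to 2999 bases, outside the window. H3K4me3 covered the downstream side of the window in every library, and its loss there lay upstream of the start. The control libraries had 1923, 1787, 1932 and 1652 bases covered and those labelled cKO 3059, 3020, 2793 and 2376 bases, without overlap, for a log2 difference of 0.59 (SE 0.10, adjusted p = 0.0348). Of the 9 member start sites tested this was the 1 that passed (0 shorter, 8 not called), where 1.26% of 28081 were longer and 0.584% shorter. The call is not firm. It was lost with peaks of −log10 q of at least 5 (2.45, adjusted p = 0.0770), within 1 kb (0.18, adjusted p = 0.6396), in the wider window (0.35, adjusted p = 0.0571) and in 7 of 8 fits that leave out 1 library (0.55 to 0.62, adjusted p up to 0.0936). Each of those Slc17a7 values kept the direction. Slc1a1 had 1260 to 1529 bases in the controls and 1561 to 1676 in the libraries labelled cKO, also without overlap, and did not pass (0.19, SE 0.07, adjusted p = 0.293), where libraries did not overlap toward longer in 6.48% of start sites. Slc17a6, at 690 to 1026 against 612 to 918 bases, overlapped.

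No start site of a member passed for the acetylation marks. With limma, 0 of 9 start sites passed for H3K27ac and 0 of 8 for H3K9ac (0 and 0 at an unadjusted p under 0.05), where 0.362% of 22938 and 0.34% of 23799 did. Slc17a7 was fully covered with H3K27ac, at 4001 bases in 6 of 7 libraries and 3851 in the library labelled cKO numbered 1, so the window could not have shown a gain. Slc1a1 had 2578 to 2611 bases of H3K27ac in the controls and 1876 to 2517 in the libraries labelled cKO (log2 difference -0.20, SE 0.11), without overlap, which 9.97% of start sites showed toward shorter.

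The authors' fold enrichment at the strongest peak of the window overlapped between the genotypes for H3K4me3. At Slc17a7 it was 41.1 to 52.3 in the controls and 44.1 to 61.7 in the libraries labelled cKO, at the first Slc17a6 start site 12.1 to 14.7 and 10.1 to 16.2, and at Slc1a1 48.8 to 58.3 and 43.5 to 60.5. H3K4me3 libraries labelled cKO held 24377163 to 27829513 tags, a range that took in all 4 controls. The authors called the peaks of each genotype against an input of its own (the deeper of them for the cKO label), so input and genotype cannot be told apart.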

How the data were processed

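RNA was measured in 18 libraries and histone marks in 30. The authors deposited raw read counts per Ensembl gene and, per library, MACS peak lists (versions 2.1.0.20140616 and 2.1.1.20160309, per the file headers). The peak lists hold the authors' fold enrichment ratio, a −log10 q-value and peak positions per the file headers. The submitters' processing notes name mm10, GRCm38, SAMtools and MACS2. Aligner, counter and strand handling are not given in the sources used here.

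From the counts, edgeR 4.0.16 fitted a quasi-likelihood model per comparison (TMM factors, filterByExpr, Benjamini-Hochberg adjustment over all genes tested, call at adjusted p under 0.05). DESeq2 1.42.0 was an alternative. Peak coverage in windows of 2 kb on each side of 40049 start sites was tested with limma 3.58.1 on log2 of covered bases plus 100, for windows with a peak in at least 3 libraries. Scripts were tested on simulated data. No 2 libraries held identical counts. Symbols were found for 99.3% of neuron identifiers.

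Named genes were the 8 members, Setd1b, genes of the pathway lists that passed between the genotypes, Gad1, Gad2 and Glul, and the 3 genes most like each member. Single marker genes of other cell types fall outside that rule and were named after their values were seen. One further item of the rule is not reported here. The members and lists were chosen with earlier results of these data known. Alternatives were other scalings, filters, tools, windows and offsets, each lane, the replicate number as a block, and leaving out each library.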

Additional observations from a re-analysis of the deposited data

Results flagged for a closer look

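One result stood out between the materials. The genotype effect on Slc38a5 differed between neuron RNA and whole CA RNA by -2.42 on the log2 scale (SE 0.41, adjusted p = 0.00571, edgeR's quasi-likelihood interaction test over 18 libraries), since the fall in the libraries labelled cKO was larger in neuron RNA (-2.995) than in whole CA RNA (-0.56). Neuron libraries held 4 to 94 counts of it, and leaving out 1 library at a time moved the difference between -2.89 and -2.04, with a largest adjusted p of 0.0604.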

How the results depend on the processing

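Among single genes and start sites, 640 of 687 values from fits that leave out 1 library and 351 of 373 under other settings kept their direction and their side of the threshold. Counts of calls moved by more than 1.5 times in these cases, and the cause was not tested unless stated. In neuron RNA (539 genes) DESeq2 called 833. Whole CA RNA (640) gave 207 in the first lane and 224 in the second, each with fewer samples. The interaction (28) gave 69 without a filter and 67 with DESeq2. H3K4me3 (3182 start sites) gave 295 within 1 kb and 7542 in the window from 4 kb before to 8 kb after, H3K4me1 (519) 276 and 2692, H3K27ac (83) 5 with an offset of 1000 bases and H3K9ac (81) 386 in the wide window. Leaving out 1 library gave 207 to 482 in neuron RNA (207 and 259 without the libraries labelled cKO numbered 1 and 2, 311 and 268 without controls 2 and 3), 18 to 32 for the interaction (18 without the neuron library labelled cKO numbered 2 or neuron control 1), 1999 to 3578 for H3K4me3 (2033, 1999 and 2073 without controls 2, 3 and 4), 1 to 101 for H3K27ac (6, 12 and 1 without controls 1, 3 and 4) and 11 to 81 for H3K9ac (11, 15 and 18 without those labelled cKO numbered 1, 2 and 4).

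Some directions turned. The interaction of Slc1a3 was 0.003 with RLE factors and with DESeq2. With library size alone, Slc32a1 between the control materials was 0.039 and Slc17a6 between the materials labelled cKO 0.110. H3K4me1 at Slc1a1 turned from 0.187 to -0.240 in the wide window, and neither value passed. In whole CA RNA Gad1 was -0.062 and Glul 0.010 in the first lane. Leaving out 1 library spanned 0 for H3K4me3 at Slc1a2 (-0.022 to 0.007) and Slc1a3 (-0.036 to 0.067), for Slc17a6 between the materials (-0.372 to 0.136 in those labelled cKO, -0.241 to 0.317 in controls), for the interactions of Slc17a6 (-0.465 to 0.198), Slc1a1 (-0.100 to 0.001) and Slc1a3 (-0.044 to 0.056), for Slc17a7 (-0.148 to 0.021), Slc7a11 (-0.297 to 0.098), Gad1 (-0.064 to 0.171) and Gad2 (-0.011 to 0.220) in neuron RNA, and for Slc32a1 (-0.007 to 0.177) and Gad2 (-0.073 to 0.011) in whole CA RNA.

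Samples that share a replicate number did not deviate together throughout. Their r ran from -0.06 to 0.29 in RNA and from -0.08 to 0.08 in peak coverage. The neuron RNA libraries numbered 2 (r = 0.29) were each other's best match across the genotypes. Not every sample correlated best with its own number, so the numbers were not taken as pairs. A fit with a replicate block called 327 genes in neuron RNA, and of start sites 1840 (H3K4me3), 60 (H3K4me1), 0 (H3K27ac) and 0 (H3K9ac). With the block, 4 of 9 counts stayed within 1.5 times. H3K4me1 at Slc17a7 was then 0.594 (adjusted p = 0.114), and between the materials labelled cKO Slc1a1 was 0.097 (adjusted p = 0.307) and Slc17a8 -0.360 (adjusted p = 0.04538). The other 66 single values kept their call.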
